A study of Harpegnathos saltator with 22 samples.

Results

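The genes described here are those whose ovary RNA was most worker-rich in Harpegnathos saltator, a ponerine ant. They were chosen on the mean normalized counts of the authors' deposited table, by the ratio r, the log2 of the worker mean plus 1 over the gamergate mean plus 1. Each mean covers control and Kr-h1 siRNA ants of a caste. Among 8447 genes with at least 100 counts in the larger of the 2 means, and with 4 genes left out by the rule, the 200 with the highest r were taken, of 13693 in the table. Harpegnathos workers can leave the worker caste, mate and lay eggs, and are then called gamergates. The study injected siRNA into the head against Kr-h1 (Krüppel homolog 1), which encodes a zinc-finger protein that responds to juvenile hormone and ecdysone, and took the ovaries 24 h later. Polyadenylated RNA of each single ant made 1 library, with 6 mature gamergates and 5 mature workers given the control siRNA (GFP in the sample labels) and 7 mature gamergates and 4 mature workers given Kr-h1 siRNA. All 22 ants had received an injection, so no group is untreated, and the ants' ages are not given beyond "mature".

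The ovary of an ant is a bundle of tubes, in which germ cells and the follicle cells around them grow into eggs inside a sheath of muscle, with nerve and tracheal supply. In Harpegnathos the ovaries of gamergates produce eggs, whereas those of workers under a reproductive are small. In whole ovaries, fewer cells of a type and less RNA per cell cannot be told apart. The table holds no values per ant, so 4 group means stand in for them, and the spread within a group is known only through standard errors (SE) worked back from each deposited fold change and its p-value.

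Kr-h1 itself (LOC112589664) had deposited log2 fold changes of 0.26 in gamergate ovaries (SE 0.47, adjusted p = 0.734, DESeq2) and -0.48 in worker ovaries (SE 0.70, adjusted p = 0.706, DESeq2). Neither passed the threshold of 0.05 used throughout, and the head, where the siRNA was given, was not measured here. The markers fixed for ovary cells were present in every group. The 6 germline markers (AGO3, BicD, egl, nanos, orb and vas) summed to between 16123 and 23934 normalized counts per group. The 7 follicle cell markers (Cad99C, Fas3, ndl, tj, tsl, yellow-g and yellow-g2) summed to 17386 in control and 4804 in Kr-h1 gamergates, and to 3768 in control and 1946 in Kr-h1 workers. None of these germline or follicle cell markers was at 0 in all groups.

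The values that chose the members are given as a description. Their r ran from 1.73 to 5.91 with a median of 2.32, so that the worker mean was between 3.31 and 60.0 times the gamergate mean once 1 was added to both. Their deposited worker means ran from 100.03 to 92726 normalized counts (median 519) and their gamergate means from 0.996 to 12965 (median 87.7). Just inside the limit stood LOC105180951, LOC112589671, LOC105183758, LOC105184316 and LOC112588909 with r between 1.74 and 1.73. Just outside it stood Ance-3, blo, LOC105185999, LOC105181186 and Syt4, with r between 1.72 and 1.71. The limit therefore separates genes that hardly differ. Of the 200 members, 33 (16.5%) have a descriptive symbol in RefSeq, against 43.5% of the eligible genes, and the other 167 are known by ID alone. All 3 genes with the highest r are of that kind, LOC112589918, LOC105190300 and LOC105180584.

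**Figure D1:**
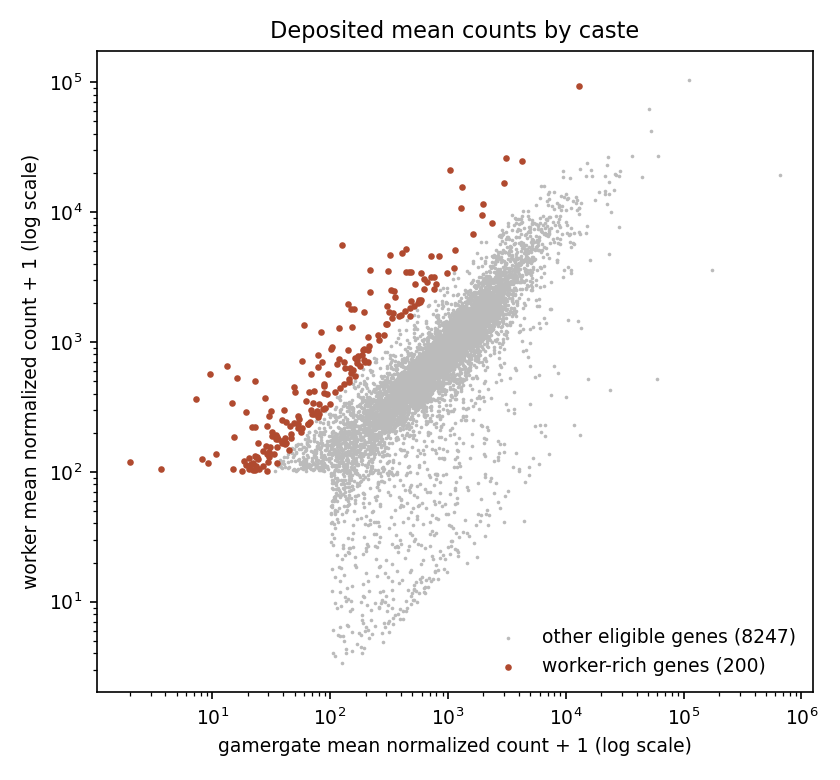
Deposited mean normalized count plus 1 in gamergates (x) and in workers (y), both on log scales, for the 200 worker-rich genes (red) and the other 8247 eligible genes (grey). The red points are the upper edge of the cloud, at least 3.31 times as high in workers, and this is what the rule selected.

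Under the control siRNA the members' worker over gamergate log2 fold changes in the authors' deposited table had a median of 3.47, an 11.0-fold difference, and ran from 1.56 to 9.08. The table calls 172 of the 174 members that have an adjusted p there higher in workers, where the background is 27.2% of all genes tested. The rule used the same castes, so nothing is read from that count. Splitting the deposited means into the 4 groups gives the levels in each condition. The median member stood at 676 normalized counts in control workers, 353 in Kr-h1 workers, 105 in Kr-h1 gamergates and 58.0 in control gamergates. That order of the 4 groups held within 176 of the 200 members. The worker over gamergate difference of the Kr-h1 siRNA ants had a median log2 of 1.52, a 2.87-fold difference, against 11.0-fold in the control ants. It was smaller than in the control ants for 196 members and larger for 4. In 5 members the gamergate mean was the higher of the pair under Kr-h1 siRNA, among them Mdr49. None of the 5 has a p-value in the worker knockdown, and in LOC105191065 the castes were level (0.996-fold). The control ants enter the caste comparison and both knockdowns, and the difference in the Kr-h1 ants was computed from all of these, so the smaller difference and the knockdown responses below are not separate results.

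**Figure D2:**
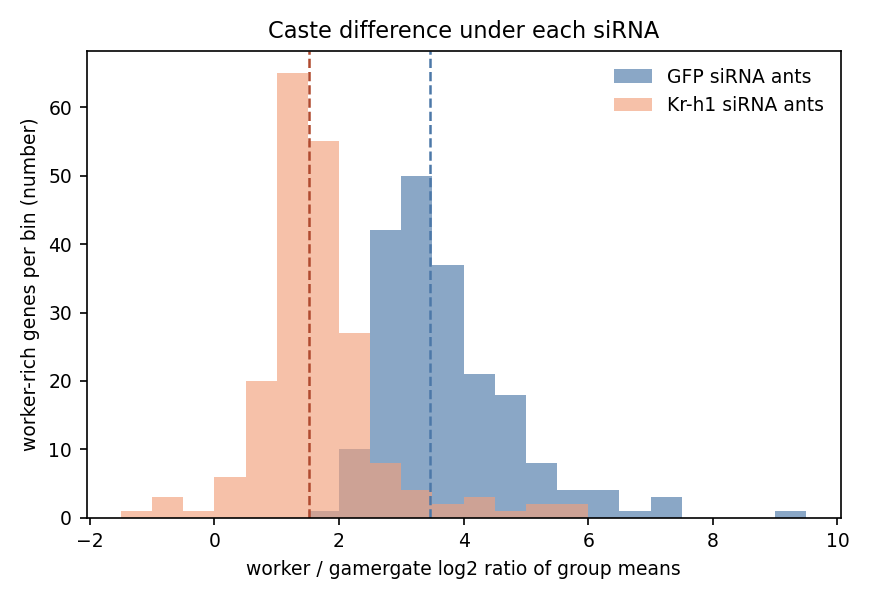
Worker over gamergate log2 ratio of group means (x, bins of 0.5) against the number of worker-rich genes (y), in the GFP siRNA ants (blue) and in the Kr-h1 siRNA ants (orange). The dashed medians stand at 3.47 and 1.52.

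In gamergate ovaries a sizeable part of the worker-rich genes was called higher after Kr-h1 siRNA, and none was called lower. Of the authors' deposited tests, 52 of the 199 members tested were called higher, 26.1%, where the background is 8.95% of all 11145 genes tested. None was called lower (background 5.9%, DESeq2), and none was lower at an unadjusted p under 0.05 either. The members' deposited log2 fold changes had a median of 0.87, a 1.83-fold difference, against 0.00 over all genes, and 190 of the 200 were positive. Of the called members, 42 rose at least 2-fold, as did 129 of all 11145 genes tested. Among members with a symbol, 12 of 33 rose, led by bnb, Miox, Ubx, Tpx-4, Tret1 and bi.

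In worker ovaries the deposited fold changes of the same genes lay on the other side of 0, with fewer calls. Of the authors' deposited tests, 13 of the 169 members tested were called lower, 7.69%, where the background is 2.69% of all 10577 genes tested. None was called higher (background 2.23%, DESeq2), and none was higher at an unadjusted p under 0.05. The median deposited log2 fold change was -1.08, a 2.12-fold difference, against -0.03 over all genes, and 190 of the 200 were negative. Of those called, 12 fell at least 2-fold, as did 190 of all 10577 genes tested. The called members with a symbol were Ubx and black. The SEs were larger in workers, with a median of 0.66 on the log2 scale over the 169 members with a worker p-value, against 0.40 for the same genes in gamergates. Over all genes the medians were 0.26 and 0.17.

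The knockdown responses of the castes share no ant, and their difference was tested gene by gene over all 10453 genes tested in both. It was called for 60 of the 168 members tested, 35.7%, each with the more positive response in gamergates, where the background in that direction is 5.19%. In the other direction no member was called (background 5.27%), nor was any at an unadjusted p under 0.05. Signs were positive in gamergates and negative in workers for 181 members, 90.5%, and for 28.8% of all genes with both fold changes. The 6 members called in both castes, each higher in gamergates and lower in workers, were Ubx, LOC105190888, LOC105191507, LOC105184017, LOC105188077 and LOC105189116. Among all 12624 genes with both fold changes, 62 had a call in both castes, 38 of them with opposite signs. Among the 8447 eligible genes these counts were 58 and 35, so most genes with opposite calls were no members. Across the 200 members the sizes of the responses were only weakly related (Spearman rho -0.09, a description across genes), so the genes that moved most in one caste were not, as a rule, those that moved most in the other.

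**Figure D3:**
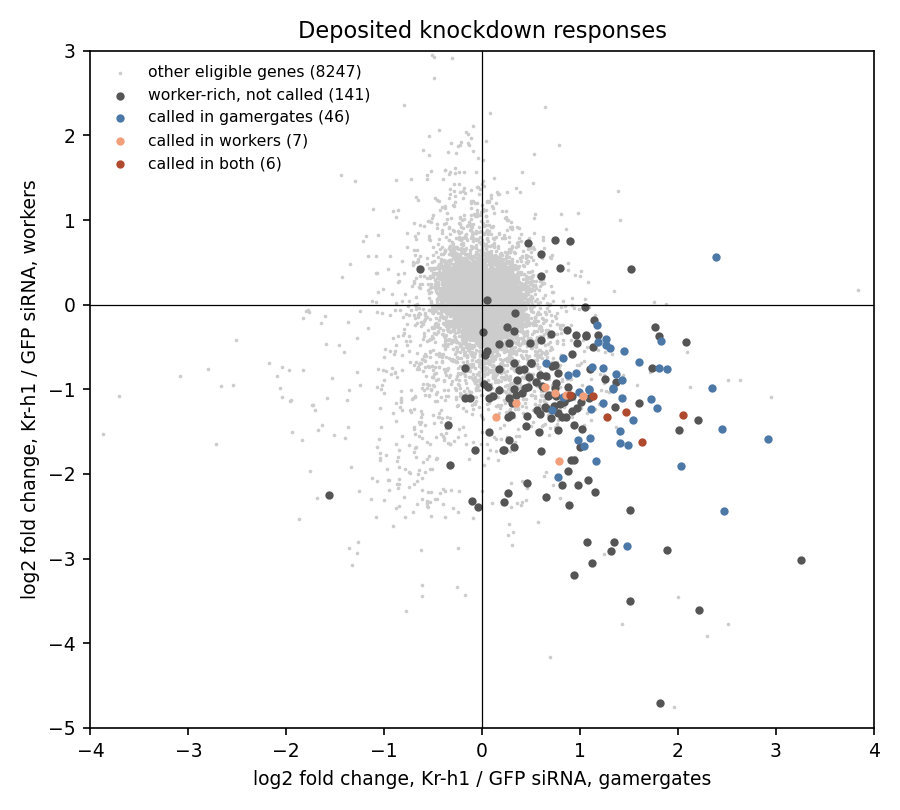
Deposited log2 fold change after Kr-h1 siRNA in gamergates (x) and in workers (y) for the 200 worker-rich genes, coloured by call, and the other eligible genes (grey, of which 10 lie outside the axes). Of the 200, 181 lie in the lower right, higher in gamergates and lower in workers, with 46 called in gamergates alone, 7 in workers alone and 6 in both.

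The choice of ants behind the rule bears on these counts, since the means that chose the members hold the ants the responses are measured in. Where 200 genes were chosen in the same way on the Kr-h1 siRNA ants alone, 121 of them were members. In that set 28 of 200 were called higher in gamergates, 14% against the background of 8.95%, and 1 lower. In workers 5 of the 185 tested were called lower, 2.7% against the background of 2.69%, and 0 higher (DESeq2), so that the share of worker calls was that of all genes. The responses differed for 27 of 185, 14.6% against 5.19%, and the median log2 fold changes were 0.49 in gamergates and -0.44 in workers. In the control ants 176 of the 189 tested genes of this set (93.1%) were called higher in workers by the deposited table, and 1 lower. The shares over all genes were 27.2% higher and 26% lower. The Kr-h1 means behind that choice were computed from control means and fold changes, so this count is not fully separate from the choice. The 200 genes at the other end of r, the gamergate-rich ones, had negative medians in both knockdowns, -0.62 in gamergates and -1.48 in workers. Of these, 5 of 197 tested were called lower in gamergates, 2.54% against the background of 5.9%. In workers 12 of 176 were called lower, 6.82% against the background of 2.69%, so that a share of lower calls close to the 7.69% of the worker-rich genes was also seen at the other end of r. The test of the difference called 0 of 173, where an unadjusted p under 0.05 was reached by 6 with the more positive and 3 with the more negative response in gamergates.

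Along the ratio itself, the 50 members with the highest r had the most negative median in workers, -1.55, but 0 calls there (DESeq2) and a median recovered SE of 1.04. The last 50 had a worker median of -0.93 with 1 call and an SE of 0.54. In gamergates the median was 0.94 in the first 50, with 11 called, and 0.78 in the last 50, with 20 called. The most worker-rich genes were thus those measured with the largest error in workers.

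**Figure D4:**
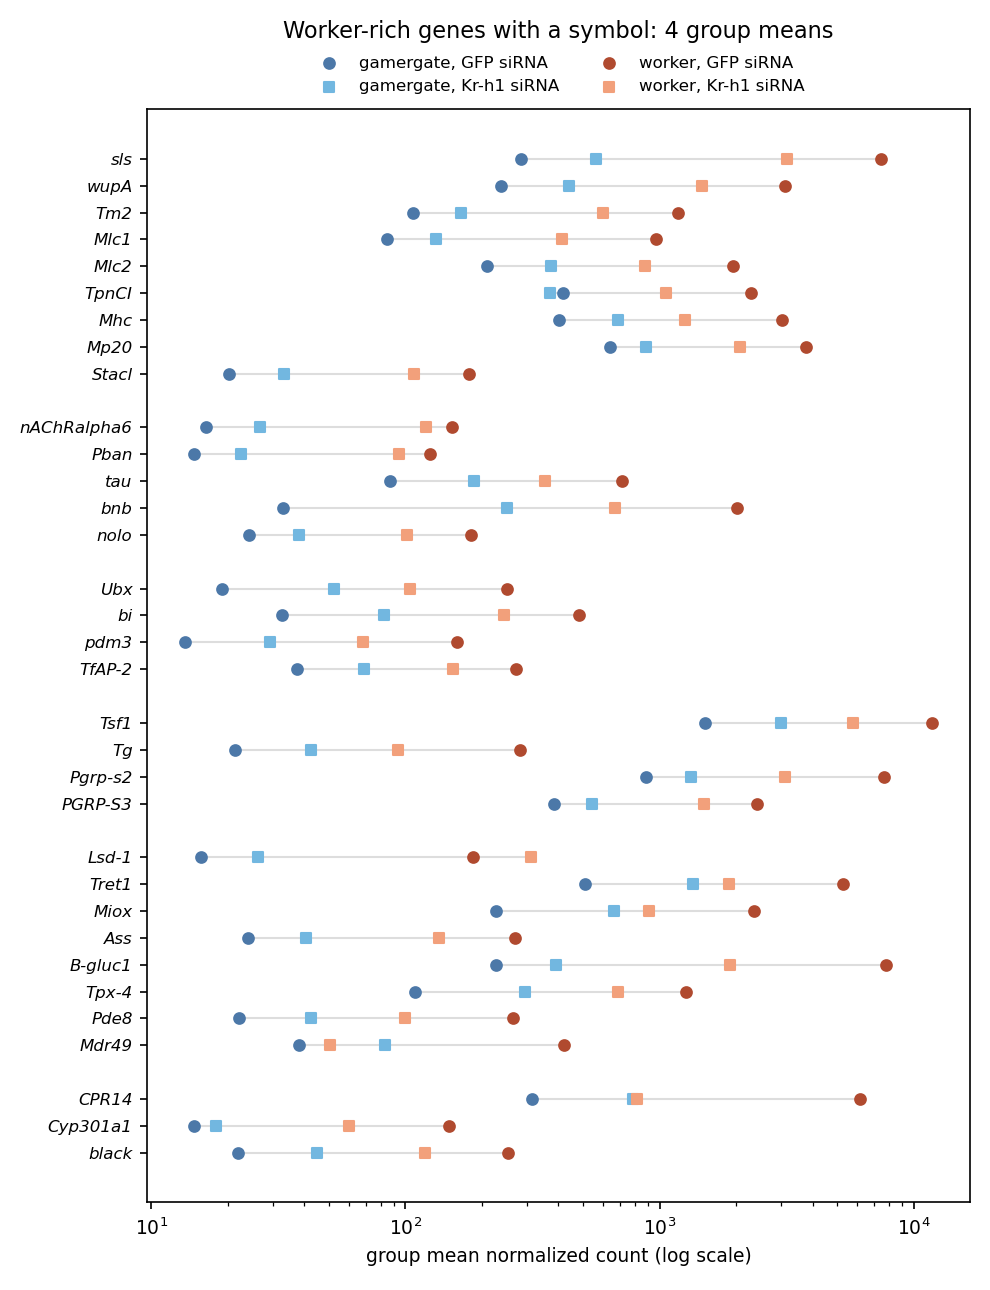
Group means in normalized counts (x, log scale) of the 33 worker-rich genes with a symbol, grouped from top to bottom as muscle, nerve, transcription factors, circulation and immunity, metabolism and transport, and cuticle. In most rows the order from left to right is control gamergates, Kr-h1 gamergates, Kr-h1 workers, control workers, and TpnCI, Lsd-1 and Mdr49 depart from it.

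Of the transcription factors among the members, Ubx, bi, pdm3 and TfAP-2 were called higher in gamergates, and Ubx was also called lower in workers. Ubx (Ultrabithorax, LOC105188844) is a Hox gene that sets the identity of body segments in insects. Its group means were 19.0 normalized counts in control gamergates and 52.6 in Kr-h1 gamergates, and 250.3 in control and 104 in Kr-h1 workers. The 13.2-fold difference between control castes was thus 1.98-fold between the Kr-h1 ants. In the authors' deposited table Ubx rose by 1.47 in gamergates (SE 0.25, adjusted p = 3.65e-06, DESeq2) and fell by 1.26 in workers (SE 0.41, adjusted p = 0.0479, DESeq2). The worker call is close to the threshold and is lost when every gene with a p-value enters the adjustment, or at -1.12 once the trend of fold changes along mean count is removed. The responses differed by 2.73 (SE 0.48, adjusted p = 1.02e-05, z test).

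The T-box factor bi (bifid, or optomotor-blind, LOC105185675), which patterns appendages in flies, went from 32.8 to 82.6 normalized counts in gamergates and from 482 to 244 in workers. It rose in gamergates in the authors' deposited table (1.33, SE 0.30, adjusted p = 8.73e-04, DESeq2) and stood at -0.98 in workers (adjusted p = 0.118). The POU-domain gene pdm3 (LOC105188889), known from neurons in flies, rose by 1.12 in gamergates and stood at -1.24 in workers in the deposited table (adjusted p = 0.0108 and 0.0650, DESeq2). TfAP-2 (LOC105192267), an AP-2 family factor, rose by 0.88 in gamergates in that table and stood at -0.83 in workers (adjusted p = 0.00936 and 0.115, DESeq2). For bi, pdm3 and TfAP-2 the difference between castes was also called (2.31, 2.35 and 1.70). Of 53 genes on the body plan factor list, 3 were members. The list had 13 higher (28.9%) and 2 lower (4.44%) of 45 tested in gamergates, against 8.95% and 5.9% of all genes. In workers it had 2 higher and 2 lower (4.76% each) of 42, against 2.23% and 2.69%. The list's median was 0.35 in gamergates and -0.19 in workers, against 0.00 and -0.03 over all genes. Among its genes that are no members, mirr, an Iroquois homeobox factor, rose in gamergates and fell in workers in the deposited table (0.71 and -0.95).

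Structural genes of muscle made up 8 of the 33 symbols, and none of the 8 was called in either knockdown (DESeq2). The giant elastic protein gene sls (sallimus, LOC105184337) had 285 normalized counts in control and 560 in Kr-h1 gamergates, and 7439 in control and 3181 in Kr-h1 workers. The myosin heavy chain gene Mhc (LOC105191850) stood at 402 and 689 in gamergates and at 3031 and 1253 in workers. The remaining members are the myosin light chain genes Mlc1 and Mlc2, tropomyosin Tm2, the troponin I gene wupA, the troponin C gene TpnCI and Mp20, a muscle protein of the calponin family. Their deposited gamergate fold changes ran from -0.18 (TpnCI) to 0.97 (sls), with SEs between 0.17 and 0.49, and their worker ones from -1.27 (Mhc) to -0.85 (Mp20), with SEs between 0.51 and 0.77. At an unadjusted p under 0.05, 1 of the 8 was higher in gamergates and 3 were lower in workers. Over all genes with a fold change it was 1962 of 12861 and 1442 of 12828. The difference between castes passed for Mhc (2.05, SE 0.72, adjusted p = 0.0435, z test) and Mlc2 (1.98, SE 0.71, adjusted p = 0.0499, z test), both close to the threshold. Of the 40 genes of the muscle list, 10 rose (25%, against 8.95% of all genes) and 0 fell in gamergates in the deposited table. In workers 0 were called, where 2.23% of all genes were called higher and 2.69% lower. An unadjusted p under 0.05 was reached there by 10 with a negative and 1 with a positive fold change. Over all genes these counts were 1442 and 1080. The risers were no members, among them Lmpt (0.81), sns (0.82) and the muscle regulator Mef2 (0.44). Stacl, whose relatives couple to calcium channels in muscle and nerve, stood at 0.71 in gamergates and -0.72 in workers in the deposited table, with neither called.

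Genes known from nerve and glia included bnb, which had the largest called fold change of the members in gamergates. This gene (bangles and beads, LOC105189268), known from glia in fly embryos, had 33.0 normalized counts in control and 250.2 in Kr-h1 gamergates. In workers it had 2007 in control and 666 in Kr-h1 ants. In the authors' deposited table it rose by 2.92 in gamergates, 7.58-fold (SE 0.77, adjusted p = 0.0052, DESeq2), and stood at -1.59 in workers (SE 0.80, adjusted p = 0.211, DESeq2). The microtubule-binding protein gene tau rose by 1.09 in gamergates in that table (adjusted p = 0.0217, DESeq2), from 87.1 to 186 normalized counts, and stood at -1.01 in workers. The acetylcholine receptor subunit gene nAChRalpha6, the neuropeptide gene Pban (pheromone biosynthesis activating neuropeptide) and nolo were not called in either caste, with deposited values of 0.70, 0.61 and 0.65 in gamergates and -0.35, -0.42 and -0.84 in workers. Of 75 nerve genes 1 was a member, and 18 rose (24.7%) and 2 fell (2.74%) of 73 tested in gamergates, against 8.95% and 5.9% of all genes. In workers 3 rose (4.35%) and 6 fell (8.7%) of 69, against 2.23% and 2.69%.

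Among members known from haemolymph and defence, Tsf1 and Tg were called in gamergates. Tsf1 (transferrin, LOC105192665), an iron carrier secreted into the haemolymph, had 1505 and 2996 normalized counts in control and Kr-h1 gamergates and 11827 and 5767 in workers. It rose by 0.99 in gamergates in the authors' deposited table (SE 0.34, adjusted p = 0.0299, DESeq2) and has no p-value in workers (-1.04). Tg (transglutaminase, LOC105187925), which cross-links proteins in haemolymph clotting in flies, rose by 0.98 in gamergates and stood at -1.60 in workers in the deposited table (adjusted p = 0.0151 and 0.162, DESeq2). Its responses differed by 2.58 (SE 0.78, adjusted p = 0.0176, z test). The peptidoglycan recognition genes Pgrp-s2 and PGRP-S3, whose proteins bind bacterial cell walls, were not called in gamergates (0.59 and 0.50 in the deposited table). PGRP-S3 was not called in workers either (-0.69), and Pgrp-s2 has no p-value there (-1.29). Such genes have close relatives, and reads shared with a near-identical copy would make their counts uncertain.

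Among genes of metabolism and transport, Miox (LOC105187328), an inositol oxygenase, went from 227 to 660.2 normalized counts in gamergates and from 2351 to 912 in workers. It rose by 1.54 in gamergates in the authors' deposited table (SE 0.23, adjusted p = 2.06e-08, DESeq2) and stood at -1.37 in workers (SE 0.46, adjusted p = 0.0518, DESeq2), just short of the threshold. A 10.4-fold difference between control castes was 1.38-fold between Kr-h1 ants, and the responses differed by 2.91 (SE 0.51, adjusted p = 8.20e-06, z test). Tpx-4, a peroxiredoxin-like gene, rose from 109.5 to 294 in gamergates (1.43, adjusted p = 2.26e-07 in the deposited table, DESeq2), with 1271 and 684 in workers (-0.89, adjusted p = 0.295). Tret1, which carries the blood sugar trehalose, rose by 1.40 in gamergates and stood at -1.50 in workers in the authors' deposited table (adjusted p = 0.0178 and 0.349, DESeq2). B-gluc1 rose by 0.77 in gamergates in that table (adjusted p = 0.0310, DESeq2), from 228 to 389.9 normalized counts. In workers it had 7775 and 1893 normalized counts and has no p-value.

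The lipid droplet protein gene Lsd-1 (LOC105181684), a fat body marker, was an exception, since its fold changes were positive in both castes. It had 15.7 and 26.2 normalized counts in control and Kr-h1 gamergates and 184 and 312 in workers. Its deposited values were 0.74 (SE 0.40) and 0.76 (SE 1.02), neither called, and the difference of -0.02 had an SE of 1.09. Of the 33 members with a symbol it was the 1 with a positive worker fold change, as TpnCI was the 1 with a negative gamergate one. The argininosuccinate synthase gene Ass and the cyclic nucleotide phosphodiesterase gene Pde8 were not called (0.75 and 0.94 in gamergates, -0.99 and -1.42 in workers in the deposited table). Mdr49, an ABC transporter, had 38.1 and 83.1 normalized counts in gamergates and 420 and 50.6 in workers. It was not called in gamergates and has no p-value in workers. Of 39 genes on the transport, gut and tubule list, 2 were members (Mdr49 and Cyp301a1), and 2 rose and 2 fell in gamergates (5.13% each, against 8.95% and 5.9%). In workers 1 rose (2.7%) and 2 fell (5.41%) of 37, against 2.23% and 2.69% of all genes.

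Cuticle and pigment genes closed the named members. CPR14, a cuticular protein gene, had 316 and 789 normalized counts in control and Kr-h1 gamergates and 6135 and 813 in workers. The castes were thus 19.4-fold apart in control ants and 1.03-fold apart under Kr-h1 siRNA, but CPR14 was not called in gamergates (1.32 in the deposited table, SE 0.61) and has no p-value in workers. The gene black, which makes beta-alanine for cuticle tanning, had 22.0 and 45.0 normalized counts in gamergates and 253 and 120 in workers. It fell by 1.08 in workers in the authors' deposited table (SE 0.32, adjusted p = 0.0296, DESeq2) and stood at 1.03 in gamergates (adjusted p = 0.157). The worker call is lost, at -0.94, once the trend of fold changes along mean count is removed. Cyp301a1, a cytochrome P450 gene of cuticle formation in flies, was called in neither caste (0.29 and -1.30).

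**Figure D5:**
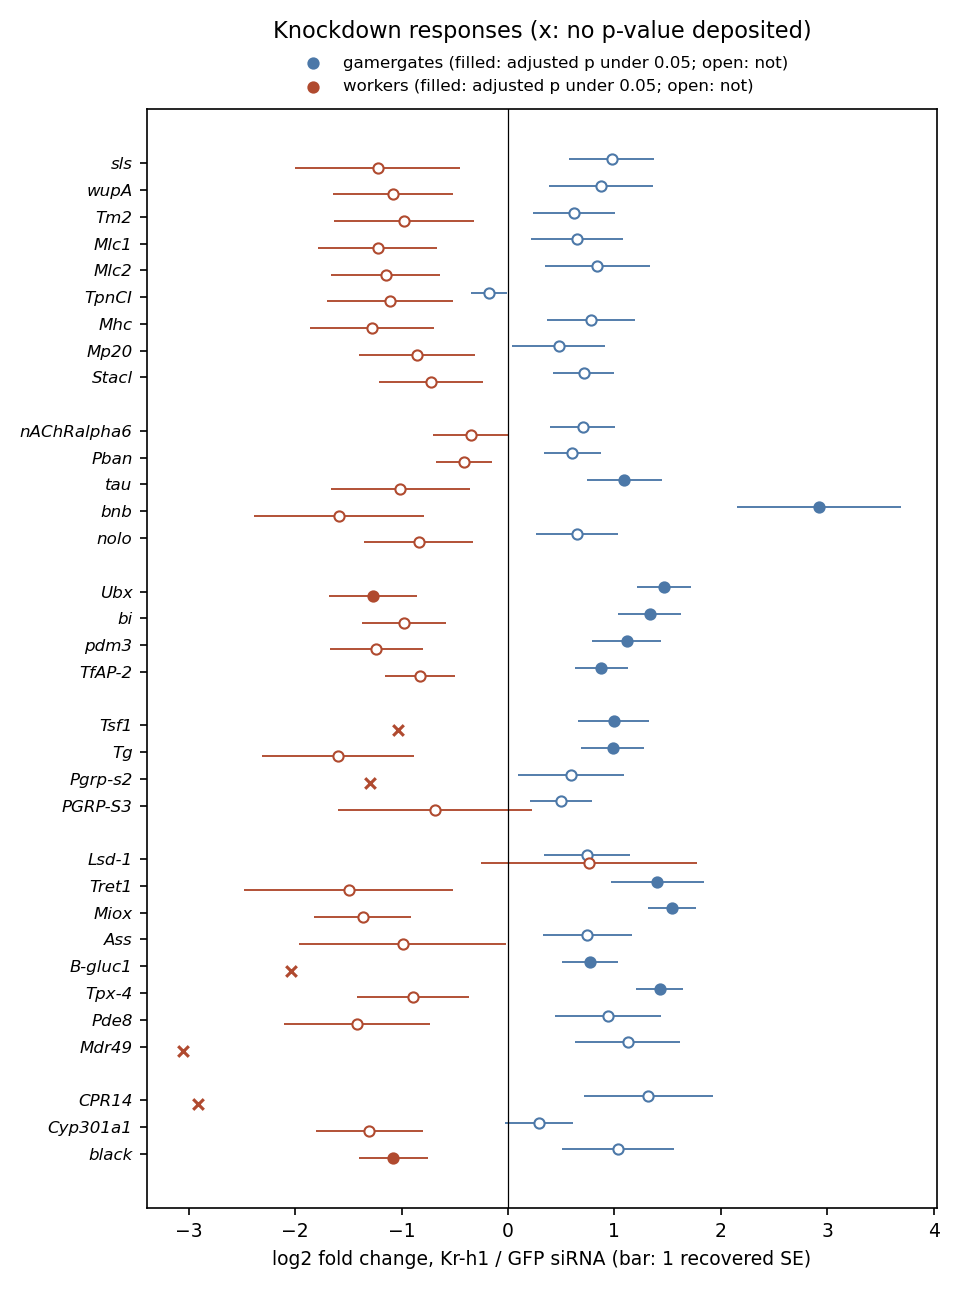
Deposited log2 fold change after Kr-h1 siRNA (x) of the 33 worker-rich genes with a symbol, in gamergates (blue) and workers (red), in the same order as the plot of group means. Bars are 1 SE, filled points have an adjusted p under 0.05, open points do not, and crosses have no p-value. Of the 33, 12 are filled in gamergates, to the right of 0, and 2 in workers, to the left.

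The other lists are given beside the shares called among all genes, 8.95% higher and 5.9% lower in gamergates and 2.23% higher and 2.69% lower in workers. The members are 2.37% of the eligible genes, so a list of this size without a member is not read as a lack. Of the muscle list above, 20% were members. The lists were counted over all genes, eligible or not. Of the fat body and yolk genes 3 of 23 were members (Lsd-1, Tret1 and Tsf1), and the deposited table calls 6 higher (26.1%) and 0 lower in gamergates, and 0 higher and 2 lower (9.09%) of 22 in workers. Signalling genes of the germline niche and follicle held 0 members of 62, with 20 higher (32.3%) and 1 lower (1.61%) in gamergates, and 0 higher and 3 lower (4.92%) of 61 in workers. Matrix and adhesion genes held 0 of 57, with 13 higher (22.8%) and 2 lower (3.51%) in gamergates, and 0 higher and 6 lower (10.7%) of 56 in workers. Higher shares than over all genes in gamergates, and lower calls in workers, were thus also counted in lists without a member. Germline genes held 0 of 41, with 8 higher (20.5%) and 2 lower (5.13%) of 39 in gamergates, and 3 higher (7.32%) and 4 lower (9.76%) of 41 in workers. Juvenile hormone and ecdysone genes held 0 of 33, with 2 higher (6.25%) and 3 lower (9.38%) of 32 in gamergates, and 2 higher (6.45%) and 0 lower of 31 in workers. Haemocyte and immune genes held 1 of 27 (Pgrp-s2), with 3 higher (11.1%) and 1 lower (3.7%) in gamergates, and 0 higher and 2 lower (7.69%) of 26 in workers. Cuticle and tracheal genes held 1 of 29 (CPR14), with 3 higher (12%) and 2 lower (8%) of 25 in gamergates, and 1 higher (4.55%) and 5 lower (22.7%) of 22 in workers.

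Several of the largest changes belong to genes without a symbol. LOC105191065 went from 97.2 to 540.2 normalized counts in gamergates and from 2925 to 538 in workers, so that the Kr-h1 siRNA castes were level. It rose by 2.48 in gamergates in the authors' deposited table (SE 0.67, adjusted p = 0.00606, DESeq2) and has no p-value in workers (-2.44). LOC105185407 rose by 2.45 in gamergates in that table, from 5.31 to 29.0 normalized counts (adjusted p = 0.00678, DESeq2), and went from 438 to 158 in workers (-1.47, adjusted p = 0.179). In workers LOC105182765 fell most among the called members, by 1.84 in the deposited table (SE 0.43, adjusted p = 0.00292, DESeq2), from 244 to 68.1 normalized counts. LOC105191507 followed at -1.62 in workers in that table and rose by 1.63 in gamergates. The member with the highest r, LOC112589918, stood at 177 normalized counts in control workers, 69.0 in Kr-h1 workers and under 2 in both gamergate groups (0.328 and 1.51). LOC105187459 alone made up 20.4% of the members' summed counts in control workers, with 131500 normalized counts there, 63734 in Kr-h1 workers, 10760.2 in control and 14290.1 in Kr-h1 gamergates, and was called in neither knockdown. The 199 others held 4.75% of all normalized counts in control workers, 1.84% in Kr-h1 workers, 0.334% in control gamergates and 0.579% in Kr-h1 gamergates.

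A missing p-value was frequent among the members. In the worker knockdown 31 of the 200 (15.5%) have a fold change but no p-value in the authors' deposited table, against 88 genes (0.686%) of all with a fold change, and between control castes 26 members against 109 genes. The table gives no reason. The 31 had a median worker log2 fold change of -2.13, against -1.01 for the members with a p-value, and a gamergate median of 0.94 against 0.84. The worker responses with the largest size are therefore partly those without a test.

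Sums of the fixed markers of muscle and fat body followed the order of the members' medians over the 4 groups. Those of the fixed nerve, haemocyte, and tracheal and cuticle markers did not, but the longer lists of such genes moved otherwise, as given below. The 10 muscle markers, of which 6 are members, summed to 4630 normalized counts in control and 5951 in Kr-h1 gamergates, 23899 in control and 11701 in Kr-h1 workers. The 4 that are no members (Mef2, Msp300, tmod and TpnT) summed to 2994, 3389, 5134 and 3448. The 7 fat body markers (apolpp, Hex110, Hex70a, Hex70c, Lsd-1, Tsf1 and Vhdl) summed to 2582 and 5782 in gamergates and 20403 and 10138 in workers. Of these, Lsd-1 and Tsf1 are members. The 5 that are no members summed to 1061.5 and 2760 in gamergates and 8392 and 4060 in workers. All 7 were positive in gamergates (3 of 7 tested called), where 8.95% of all genes were called higher. In workers 6 were negative (1 of 6 tested called), where 2.69% of all genes were called lower. The 10 nerve markers, none a member, summed to 3477 and 4456 in gamergates and 4165 and 4988 in workers. These sums were higher with Kr-h1 siRNA in both castes. By sign, 8 of the nerve markers were positive in gamergates (4 of 10 tested called higher). In workers 6 were negative (0 of 7 tested called), so their signs and their sum differed there. The 3 haemocyte markers had lower sums with Kr-h1 siRNA in both castes (2438 and 2032 in gamergates, 1332 and 865 in workers). The 5 tracheal and cuticle markers did too (2353 and 1754, 637 and 437). No marker of these sets was at 0 in every group. The 75 genes of the nerve list summed to 30694 and 33037 in gamergates and 38370 and 32088 in workers. The 27 haemocyte and immune genes summed to 23252 and 25166, and 34592 and 24128. These sums were higher with Kr-h1 siRNA in gamergates and lower in workers. So were those of the 29 cuticle and tracheal genes (10128 and 10456, 15058 and 8173). Without the member CPR14 the latter fell in both castes (9812 and 9667, 8923 and 7360). All 7 follicle cell markers had negative fold changes in both castes, of which 1 of 5 tested was called in gamergates and 4 of 7 in workers. The shares called lower over all genes were 5.9% and 2.69%. The part of any of these tissues in the members' responses was not tested.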

How the data were processed

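Ovary RNA of 22 single ants in 4 groups was sequenced from strand-specific dUTP libraries of polyadenylated RNA, per the labels' protocols. The tools named in the submitters' processing notes are DESeq2, featureCounts, STAR and bcl2fastq. For versions, settings, genome build and annotation, nothing is given in the sources used here. The authors' deposited table holds 13693 genes and, for each of 3 comparisons, 4 values, namely the log2 fold change, the mean of the normalized counts, and a p-value before and after adjustment. It has no values per ant, so depth per library is unknown, no test was rerun and pairing of replicates could not be examined. Where labels do not say that ants came from separate colonies, p-values measure the spread between these ants.

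The control siRNA is spelled GRP in the labels' treatment protocol and GFP in the sample labels. A positive fold change means more RNA under Kr-h1 siRNA or, between castes, in workers. Group means were worked out from the control comparison's mean count and fold change with the group sizes of the labels, then multiplied by the knockdown fold changes. For 7609 genes with all means of at least 100, the means so rebuilt matched the deposited knockdown means with a residual SD of 0.00090 (gamergates) and 0.0056 (workers) on the log2 scale, around constant offsets of -0.03 and 0.11 between the comparisons' scales. Each SE was recovered by dividing the size of the fold change by the normal deviate that its p-value corresponds to, on the assumption of a Wald test. The knockdown responses of the castes were compared by a z test on these SEs, two-sided, with Benjamini-Hochberg adjustment over the 10453 genes tested in both, and the steps were tested on simulated data. Genes without an adjusted p count as not tested.

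Symbols come from RefSeq assembly Hsal_v8.6 by gene number (13680 of 13693 matched, all 200 members among them). They are those of presumed counterparts in other insects, and known roles are mostly from flies. No coordinates or sequences are given, since the authors' build is not stated. The 11 gene lists were matched by exact symbol, with 10 spellings adjusted after the table was opened. The members and lists were chosen with earlier results of these data known. All members with a symbol are named, 30 of the 33 by the rule. The other 3 (nolo, Stacl and TfAP-2) and LOC105187459 were named after their values were seen. So were the genes called in both castes and those with nearly equal values in workers. Python 3.11.15, pandas 2.3.3 and scipy 1.17.1 were used.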

Additional observations from a re-analysis of the deposited data

Results flagged for a closer look

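The difference of the knockdown responses, gamergates minus workers on the log2 scale, was put to the z test with Benjamini-Hochberg adjustment. It passed for 12 of the 28 members with a symbol that were tested, each with the more positive response in gamergates. Over all genes tested, 5.19% passed in that direction. The difference was 4.51 for bnb, 2.91 for Miox, 2.73 for Ubx, 2.58 for Tg, 2.35 for pdm3, 2.32 for Tpx-4 and 2.31 for bi. It was 2.11 for black, 2.10 for tau, 2.05 for Mhc, 1.98 for Mlc2 and 1.70 for TfAP-2. No single ant could be examined for standing apart, since no values per ant are at hand.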

How the results depend on the processing

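No paired analysis was possible because the deposited table has no column of a single ant, and no ant could be left out for the same reason. Main counts are 52 members higher in gamergates, 13 lower in workers and 60 with a more positive response in gamergates. At an adjusted p of 0.01 they were 22, 3 and 28, and at 0.1 the first pair was 83 and 26. With 100 members the counts were 17, 4 and 22, with 400 members 108, 39 and 122, and with the 33 symbols alone 12, 2 and 12, each from a different number of genes. With members chosen on the Kr-h1 siRNA ants, an alternative chosen after seeing the data, they were 28, 5 and 27, and 1 gene was lower in gamergates. With members chosen on the control ants' fold change they were 65, 19 and 71. The control ants are also the reference of both knockdowns, so this choice itself favours positive responses in gamergates and negative ones in workers. Nothing is read from these larger counts. No worker call in the higher direction appeared under any alternative run here, and the medians kept their signs. With the trend of fold changes along mean count removed, the counts were 51, 10 and 51, and this took the worker calls of Ubx (-1.12) and black (-0.94) while adding that of Miox (-1.48). The worker call of Ubx was also lost with every gene with a p-value in the adjustment. Leaving out the members that lack a p-value, or those of the muscle list, both chosen after seeing the data, moved no count by over 1.5 times. Library depth is unknown, and errors were larger in workers, with 5 and 4 ants.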
